A study of Mus musculus with 6 samples.

Results

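Cyclic nucleotide phosphodiesterases are the enzymes that break down cAMP and cGMP, and 10 genes of this family are described here in mouse white adipose tissue with and without KSR2. The genes are Pde2a, Pde3a, Pde3b, Pde4a, Pde4b, Pde4d, Pde5a, Pde7a, Pde8a and Pde10a. They were found by gene symbol in the annotation of the array, and all 10 had at least 1 probe set assigned to a single gene, among 18193 genes measured. The tissue came from 3 mice homozygous for a KSR2 deletion (KSR2-/-) and 3 wild-type mice (WT), all C57Bl6 females aged 6 months, with 1 Affymetrix array per mouse. KSR2 is a scaffold protein on which the kinases of the Raf-MEK-ERK cascade assemble. The comparison asked which genes differ between the genotypes. The fat depot, the deleted part of the gene, and whether the WT mice were littermates were not stated in the labels used here.

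A fat cell releases stored triglyceride when hormones such as noradrenaline raise cAMP, which activates protein kinase A and, through it, the lipases of the lipid droplet. Phosphodiesterases end that signal by hydrolysing the cyclic nucleotide. PDE3B is the classical enzyme of this kind in adipocytes, where insulin activates it through AKT and so restrains lipolysis. PDE4, PDE7 and PDE8 enzymes act on cAMP, PDE5A acts on cGMP, and PDE2A, PDE3 and PDE10A enzymes take both, with PDE2A being stimulated by cGMP.

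All values are log2 of the deposited RMA intensity, a difference is the KSR2-/- mean minus the WT mean, and each error of a difference is the standard error (SE) of a limma fit over all genes. A probe's brightness depends on its sequence, so levels are compared between arrays and never between genes. The arrays had median linear intensities of 22.4 to 24.2, and pairs of them correlated at a Pearson r of 0.955 to 0.988 across genes. KSR2-/- mouse 3 stood apart from its group. It correlated at 0.974, 0.982 and 0.988 with WT mice 1 to 3, and at 0.970 and 0.977 with KSR2-/- mice 1 and 2. KSR2-/- mouse 3 and WT mouse 3 carry lower animal numbers in the labels than the other 4. Differences are therefore also given within each number series. WT mouse 3 had a Gapdh 3′ minus 5′ difference of 4.18 log2, a measure of RNA integrity, against 0.07 to 1.46 for the other 5 mice. Ksr2 itself read 4.34 ± 0.12 in KSR2-/- and 4.42 ± 0.35 in WT (SD, n = 3 each), a low signal that does not check the genotype labels. Of the fat cell markers, Adipoq (adiponectin) read 12.70 to 13.40 in KSR2-/- and 13.46 to 13.58 in WT, and Fabp4 (the adipocyte fatty acid-binding protein) read 13.66 to 13.81 in KSR2-/- and 13.66 to 13.90 in WT, so the tissue carried strong adipocyte signal on every array.

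Within the family, Pde2a was 2.87-fold higher and Pde3b 1.86-fold lower in KSR2-/- fat, and for these 2 genes the values of the genotypes did not overlap. Pde7a was 2.01-fold higher with overlapping values. The other 7 genes differed by −0.32 to 0.30 log2. The family was selected on earlier KSR2-/- against WT differences of these same arrays, which had singled out Pde2a and Pde3b, so the values of the 10 genes are a description and were not used as a test. In the fit over all genes, none of the 10 passed limma at an adjusted p under 0.05, with adjusted p from 0.109 for Pde2a to 0.992 for Pde4b, in an experiment where 1 gene of 18193 passed (0.0055%). Unadjusted p was under 0.05 for 3 of the 10 (Pde2a, Pde3b and Pde7a), beside 12.1% of all genes, and the groups did not overlap for 2 of the 10, beside 16.3% of all genes. The median difference of the 10 was −0.07 and that of all genes −0.04. Without KSR2-/- mouse 3, Pde2a and Pde3b passed limma (adjusted p = 0.0243 and 0.0489), in a fit that passed 4.49% of all genes. The array left out was the one of its group that correlated most with WT, and these passes are no test either. With any other array left out neither gene passed (lowest limma adjusted p = 0.147 for Pde2a and 0.298 for Pde3b). The share of 4.49% is the background for every gene said below to pass without this mouse. None of those genes passed with another array left out.

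**Figure D1:**
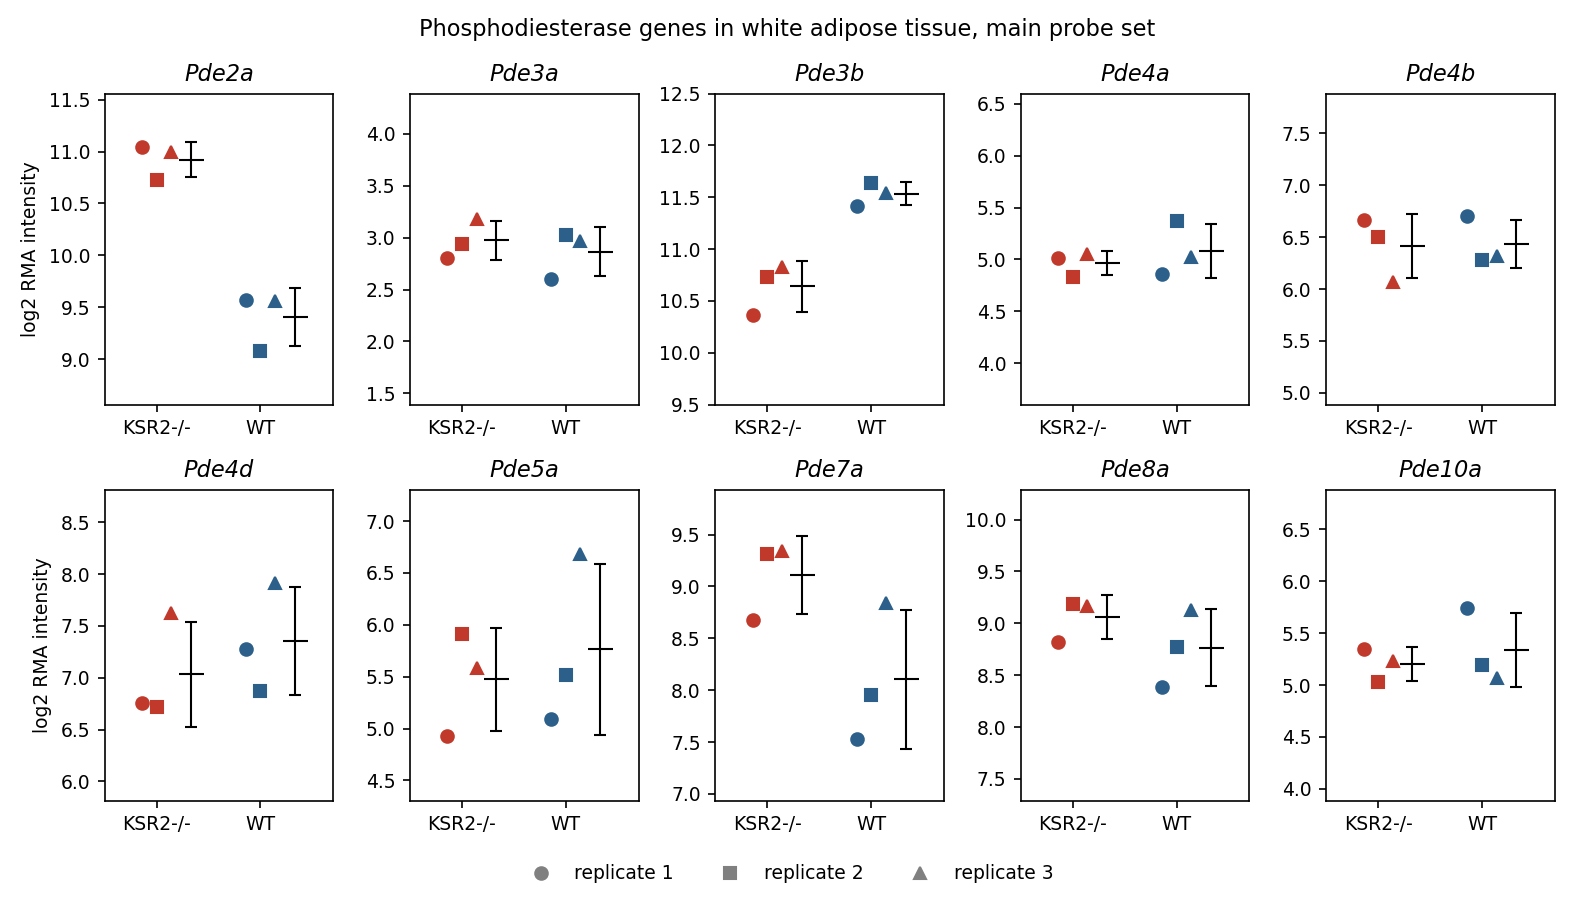
Log2 RMA intensity (vertical axis, the same span in every panel) of the main probe set of each of the 10 genes in KSR2-/- (red, left) and WT (blue, right) fat, with symbols for the 3 mice and the mean with SD as a bar. The groups are apart for Pde2a (10.73 to 11.04 in KSR2-/-, 9.08 to 9.57 in WT) and Pde3b (10.36 to 10.83 in KSR2-/-, 11.42 to 11.64 in WT) and overlap in the other 8 panels.

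Pde2a encodes the cGMP-stimulated phosphodiesterase, through which cGMP can lower cAMP. Its main probe set read 11.04, 10.73 and 11.00 in KSR2-/- mice 1 to 3, against 9.57, 9.08 and 9.56 in WT mice 1 to 3. All 3 KSR2-/- mice were high, and the lowest of them lay over 1 log2 unit above the highest WT mouse. The means were 10.92 ± 0.17 in KSR2-/- and 9.40 ± 0.28 in WT (SD, n = 3 each), a difference of 1.52 (SE 0.20). The difference was 1.56 within the higher-numbered mice and 1.44 within the lower-numbered pair, 1.48 without KSR2-/- mouse 3 and 1.60 without WT mouse 3.

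Pde2a had 2 further probe sets. The second read 8.98, 8.39 and 9.47 in KSR2-/- mice and 7.48, 7.11 and 6.99 in WT mice, a difference of 1.76 (SE 0.29) with no overlap. Its gap was wider within the lower-numbered pair (2.48) than within the other mice (1.40). The third, whose probe set identifier marks probes that may also bind other transcripts, read 7.63, 7.03 and 7.45 in KSR2-/- mice and 7.12, 6.98 and 6.98 in WT mice. That was a difference of 0.34 (SE 0.19) with overlapping values, so the size of the Pde2a difference depended on the probe set while its direction did not. The main probe set carries the suffix for probes shared between transcripts. With the mean of all 3 probe sets standing for the gene the difference was 1.21.

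Markers of other cells that can express Pde2a were read on the same arrays. Of 12 blood endothelial markers, 8 were higher and 4 lower, with 1 at an unadjusted limma p under 0.05, beside 12.1% of all genes. Their mean level was 6.52 to 6.88 in KSR2-/- and 6.36 to 6.98 in WT. Of 14 macrophage markers, 13 were higher, 8 of them at an unadjusted p under 0.05 beside 6.71% of all genes, and their mean level was 9.00 to 10.14 in KSR2-/- and 8.55 to 8.70 in WT. The macrophage level differed by 1.51 within the higher-numbered mice and by 0.45 within the lower-numbered pair. In the same order, the main Pde2a probe set differed by 1.56 and 1.44, the second by 1.40 and 2.48, and the third by 0.27 and 0.47. None of the endothelial or macrophage markers was under the 20th percentile of all values (3.44) on every array. The mean levels of the genotypes were also apart for neutrophil and mast cell markers (6.26 to 7.06 in KSR2-/-, 5.96 to 6.23 in WT), neuron and Schwann cell markers (4.48 to 4.77 in KSR2-/-, 4.07 to 4.44 in WT) and lymphatic endothelial markers (5.76 to 6.42 in KSR2-/-, 6.49 to 6.60 in WT). They overlapped for stromal progenitor, B cell and epithelial and mesothelial markers, as for the blood endothelial ones. The part of cell composition in the Pde2a difference was not tested, and in bulk tissue a change in the number of cells of a type and a change in RNA per cell cannot be told apart.

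Pde3b, the insulin-activated phosphodiesterase of fat cells, had 1 probe set. It read 10.36, 10.73 and 10.83 in KSR2-/- mice 1 to 3 and 11.42, 11.64 and 11.54 in WT mice 1 to 3. Every KSR2-/- mouse was below every WT mouse. The means were 10.64 ± 0.25 in KSR2-/- and 11.53 ± 0.11 in WT (SD, n = 3 each), a difference of −0.89 (SE 0.18). It was −0.98 within the higher-numbered mice, −0.71 within the lower-numbered pair, −0.98 without KSR2-/- mouse 3 and −0.89 without WT mouse 3.

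Adipocyte markers were read beside Pde3b. Of the 10 measured, 8 were lower and 2 higher, with 4 lower at an unadjusted limma p under 0.05 beside 5.38% of all genes, and 1 higher. Their mean level was 10.82 to 11.98 in KSR2-/- and 11.38 to 11.76 in WT, with the highest value of all 6 arrays in KSR2-/- mouse 3. Within the lower-numbered pair the marker level was 0.21 higher in KSR2-/- and Pde3b 0.71 lower, and within the higher-numbered mice they were lower by 0.58 and 0.98. The part of adipocyte content in the Pde3b difference was not tested.

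Pde3a encodes the relative of PDE3B that is prominent in heart, platelets, smooth muscle and oocytes. Its main probe set read 2.80, 2.94 and 3.18 in KSR2-/- mice and 2.60, 3.03 and 2.97 in WT mice. All 6 values lay under the 20th percentile of all values (3.44), as did both other probe sets, whose means were 2.72 and 2.49. The difference of 0.11 (SE 0.19) was therefore read near the floor of the array, and its sign changed in 2 of 11 alternative analyses.

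Pde7a encodes a cAMP-specific phosphodiesterase first known from T cells. Its main probe set, which like that of Pde2a carries the suffix for shared probes, read 8.68, 9.31 and 9.34 in KSR2-/- mice. The WT mice read 7.53, 7.95 and 8.84. WT mouse 3 was above KSR2-/- mouse 1, so the groups overlapped. The means were 9.11 ± 0.37 in KSR2-/- and 8.11 ± 0.67 in WT (SD, n = 3 each), a difference of 1.00 (SE 0.36). It ranged from 0.71 to 1.37 when single arrays were left out, and was 1.26 within the higher-numbered mice and 0.50 within the lower-numbered pair.

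With 7 probe sets, Pde7a was the most densely probed of the 10 genes. All 7 were higher in KSR2-/-, by 0.47 to 1.40, and in 3 of them the groups did not overlap. These 3 had differences of 0.55 (SE 0.19), 0.69 (SE 0.21) and 0.75 (SE 0.26). The smallest difference, 0.47, was −0.01 within the higher-numbered mice and 1.44 within the lower-numbered pair, which holds WT mouse 3. The largest, 1.40, was 0.67 and 2.85. Apart from the smallest, all probe sets were higher within both series. The probe set with a difference of 0.69 read 7.64, 7.31 and 7.87 in KSR2-/- mice and 6.94, 6.67 and 7.13 in WT mice. Probe sets of 1 gene read the same 6 RNA samples and are not replicates of the genotype. Of 7 measured T and natural killer cell markers, 5 were higher and 0 had an unadjusted p under 0.05, beside 12.1% of all genes. Their mean level was 5.07 to 5.71 in KSR2-/- and 4.57 to 5.84 in WT.

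**Figure D2:**
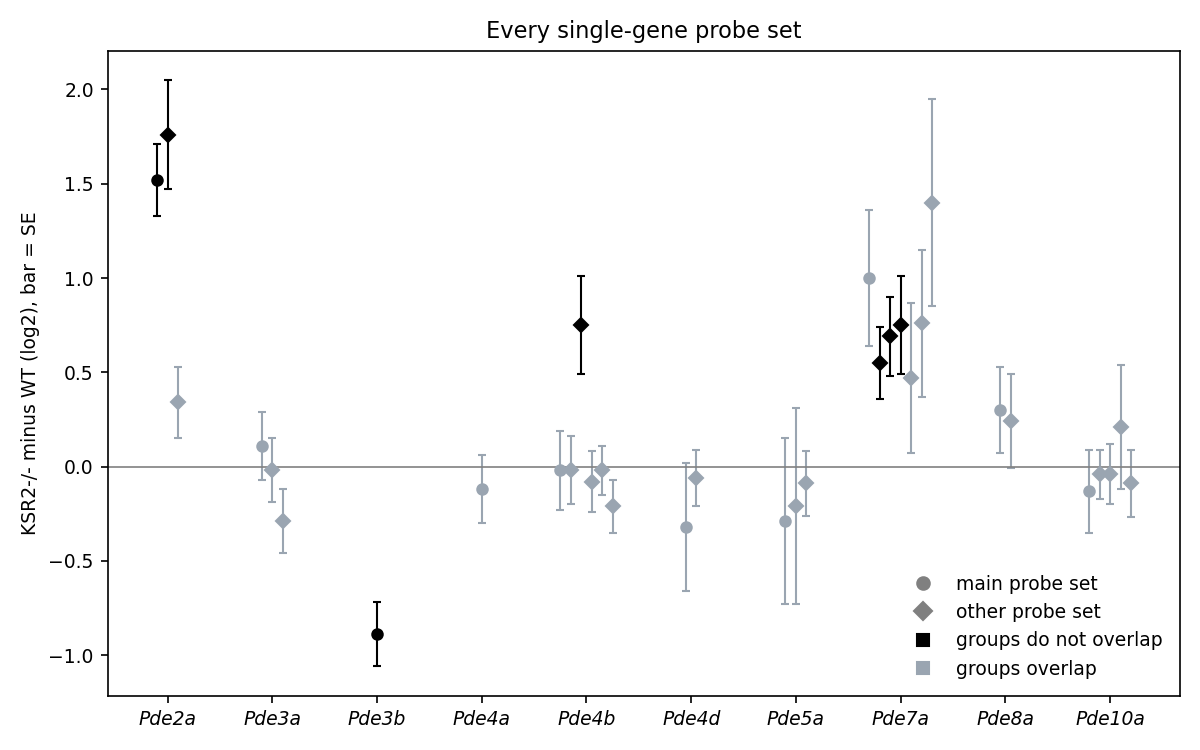
KSR2-/- minus WT difference in log2 units (vertical axis) for each of the 33 single-gene probe sets of the 10 genes, with the SE of a fit over all 34945 single-gene probe sets as a bar. Circles are main probe sets, diamonds the others, and black marks probe sets whose groups do not overlap, which are 2 of 3 for Pde2a, the only one for Pde3b, 1 of 6 for Pde4b and 3 of 7 for Pde7a.

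Over the 10 genes there were 33 single-gene probe sets, of which 15 were higher and 18 lower in KSR2-/-. The groups did not overlap in 7 of the 33, beside 15% of the 34945 single-gene probe sets of the array. None of the 33 passed limma at an adjusted p under 0.05 in the fit of every probe set.

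The PDE4 enzymes are specific for cAMP and are the targets of rolipram. Pde4b, the form that dominates in many immune cells, read 6.67, 6.50 and 6.07 in KSR2-/- mice and 6.70, 6.28 and 6.32 in WT mice. The groups lay on top of each other, with a difference of −0.02 (SE 0.22). A second Pde4b probe set gave −0.02 as well (SE 0.18). A dimmer one read 5.41, 5.43 and 5.50 in KSR2-/- mice and 5.00, 4.10 and 5.00 in WT mice, 0.75 higher (SE 0.26) with no overlap, so the probe sets of Pde4b disagreed. The remaining 3 had means of 1.96 to 2.98, and their differences ran from −0.21 to −0.02.

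Pde4d encodes a PDE4 form with many isoforms. It read 6.76, 6.72 and 7.62 in KSR2-/- mice and 7.28, 6.87 and 7.91 in WT mice, a difference of −0.32 (SE 0.34). In each genotype mouse 3 was the highest, and the difference was −0.34 within the higher-numbered mice and −0.28 within the lower-numbered pair. Pde4a had 1 probe set, at 5.01, 4.83 and 5.05 in KSR2-/- mice and 4.86, 5.37 and 5.02 in WT mice. Its difference of −0.12 (SE 0.18) was smaller than the spread within WT (SD 0.26).

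Transcription of some PDE4 genes is known to respond to cAMP, so the RefSeq promoter windows (GRCm38.p6, 250 bases before to 50 after each annotated start) were searched for the cAMP response element. The search covered 17 windows of 7 of the genes (not Pde3a, Pde3b or Pde7a). The full palindrome TGACGTCA was in 0 of the 17, beside 1.79% of 32851 windows of all genes. Its shorter core, TGACG or CGTCA on the other strand, which the full element also contains, was in 4 of the 17 (23.5%), beside 20.8% of all windows. Those 4 matches are shown with 10 bases on either side and the core in capitals, because they are the only letters of this kind in the windows of the family.
Pde2a, chr7:101450524-101450548, plus strand: ggcgcaggagCGTCAcggctgctgc
Pde4a, chr9:21184041-21184065, plus strand: cacagctcgaCGTCAggctggggag
Pde4b, chr4:102421511-102421535, plus strand: tttggctgcaCGTCAattttctcat
Pde8a, chr7:81213171-81213195, plus strand: tgctttgcatTGACGccagcagccg
The Pde2a match begins 14 bases after an annotated start, 1 of 5 for that gene, and the matches of Pde4a, Pde4b and Pde8a begin 50, 34 and 84 bases before a start. A match describes the sequence and does not show that a factor binds there. The genes with a match included the one with the highest difference, Pde2a at 1.52, and Pde4b at −0.02.

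PDE8A is a high-affinity cAMP phosphodiesterase that resists the general inhibitor IBMX. Pde8a read 8.82, 9.19 and 9.17 in KSR2-/- mice and 8.39, 8.77 and 9.13 in WT mice, with a difference of 0.30 (SE 0.23). Every KSR2-/- mouse exceeded WT mice 1 and 2, and WT mouse 3 lay among the KSR2-/- values. The difference was 0.43 within the higher-numbered mice and 0.05 within the lower-numbered pair.

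Pde5a, the cGMP-specific enzyme that sildenafil inhibits, read 4.93, 5.91 and 5.58 in KSR2-/- mice and 5.09, 5.52 and 6.68 in WT mice. The difference of −0.29 (SE 0.44) was carried by WT mouse 3, without which it was 0.16. Within the higher-numbered mice the difference was 0.11 and within the lower-numbered pair −1.10. The identifier of this probe set also marks probes that may bind other transcripts, and the 2 dimmer Pde5a probe sets differed by −0.21 (SE 0.52) and −0.09 (SE 0.17). PDE5A is abundant in smooth muscle, and 13 smooth muscle and pericyte markers had a mean level of 6.87 to 7.82 in KSR2-/- and 7.15 to 7.66 in WT. Skeletal muscle markers were at 6.99 in WT mouse 3, the array that was high for Pde5a, and at 4.16 to 5.17 on the other 5. The part of muscle RNA in the Pde5a value was not tested.

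PDE10A acts on both nucleotides and is best known from the striatum of the brain. Pde10a read 5.35, 5.03 and 5.23 in KSR2-/- mice and 5.74, 5.19 and 5.07 in WT mice, a difference of −0.13 (SE 0.22). Its other 4 probe sets had means of 3.10 to 4.38 and differences of −0.09 to 0.21, all with overlapping groups.

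**Figure D3:**
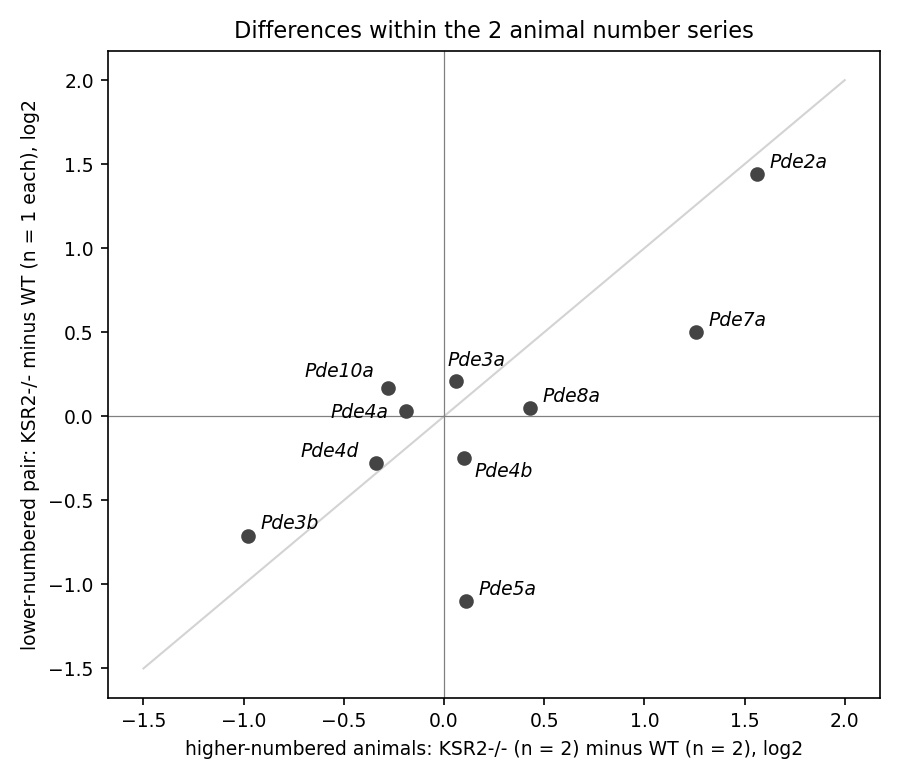
KSR2-/- minus WT difference in log2 units for each of the 10 genes within the 4 higher-numbered mice (horizontal axis, 2 per genotype) and within the lower-numbered pair (vertical axis, 1 per genotype), with a grey line where both are equal. Pde2a (1.56 and 1.44), Pde7a (1.26 and 0.50) and Pde3b (−0.98 and −0.71) have the same sign in both, and Pde5a lies at 0.11 and −1.10.

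The remaining phosphodiesterase genes gave a wider view of the family. Of 14 listed, 13 were measured, 7 higher and 6 lower, with a median difference of 0.00, and none passed limma over all genes. Pde1a, a calcium- and calmodulin-activated enzyme, read 4.90, 5.37 and 5.19 in KSR2-/- mice and 6.21, 6.92 and 6.46 in WT mice. All KSR2-/- values were below all WT values, with a difference of −1.38 (SE 0.23, limma adjusted p = 0.193), which was −1.43 within the higher-numbered mice and −1.27 within the lower-numbered pair. The difference was −0.72 when the mean of all its probe sets stood for the gene. Without KSR2-/- mouse 3 it passed (limma adjusted p = 0.0468). Pde8b, a relative of Pde8a, read 4.59, 3.79 and 3.81 in KSR2-/- mice and 3.56, 3.44 and 3.63 in WT mice, a difference of 0.52 (SE 0.24, limma adjusted p = 0.470) that was 0.25 to 0.65 with 1 array left out. Its WT values lay near the 20th percentile of all values (3.44). Pde1b differed by 0.37 (SE 0.20, limma adjusted p = 0.548), at 0.58 among the higher-numbered mice and −0.07 in the lower-numbered pair. The photoreceptor genes Pde6a and Pde6b and the cone gene Pde6h stayed under the 20th percentile of all values on every array.

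**Figure D4:**
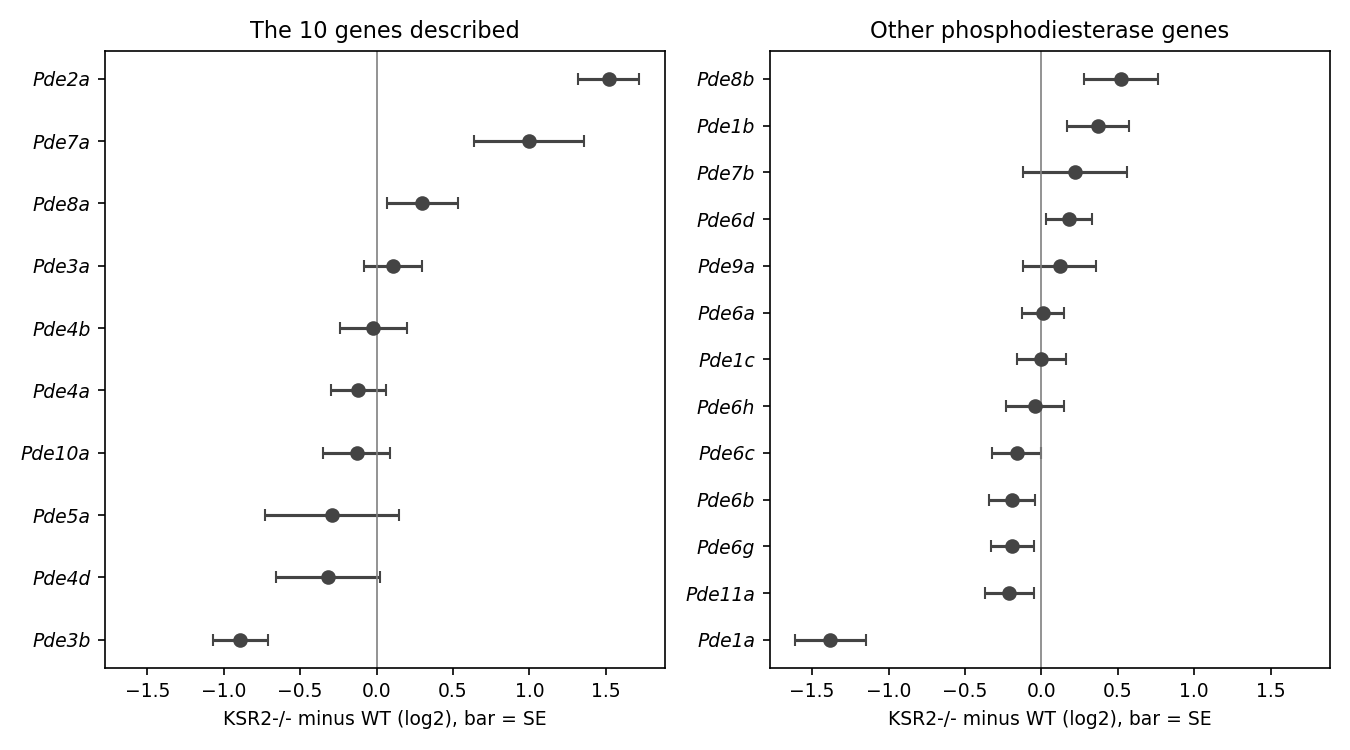
KSR2-/- minus WT difference in log2 units (horizontal axis) with its SE for the 10 genes described (left) and 13 other phosphodiesterase genes (right), each ordered by the difference. Pde2a (1.52) and Pde7a (1.00) lie highest on the left and Pde3b (−0.89) lowest, and Pde1a (−1.38) lies lowest on the right.

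Genes that make, sense and transmit cyclic nucleotides were set beside the enzymes that degrade them. The 12 lists, the other phosphodiesterase genes included, held 131 distinct measured genes, 66 higher and 65 lower in KSR2-/-, with a median difference of 0.00. None passed limma over all genes, the lowest adjusted p being 0.193. At an unadjusted p under 0.05 there were 11 higher and 9 lower, 15.3% of the 131 beside 12.1% of all genes.

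Among receptors that raise cAMP, 14 of 20 were measured, with 2 higher and 1 lower at an unadjusted p under 0.05 (6.71% and 5.38% of all genes) and a median of −0.05. The prostaglandin E2 receptors Ptger2 (1.14, SE 0.44) and Ptger4 (1.07, SE 0.45) were higher, and Pth1r, the parathyroid hormone receptor, differed by −1.72 (SE 0.56), with limma adjusted p of 0.308 to 0.413 for the 3. Within the higher-numbered mice the differences were 1.53 for Ptger2, 1.52 for Ptger4 and −2.30 for Pth1r, and within the lower-numbered pair 0.35, 0.15 and −0.58. They ran from 0.66 to 1.54, 0.78 to 1.62 and −2.26 to −1.11 with 1 array left out, and without KSR2-/- mouse 3 Ptger4 passed (limma adjusted p = 0.0113). The beta-adrenergic receptor genes were not analysed here. Of 9 measured receptors that lower cAMP, 5 were lower, with a median of −0.22. The lactate receptor Hcar1 differed by −1.26 (SE 0.32, limma adjusted p = 0.248) and Ptger3 by −0.70 (SE 0.45, limma adjusted p = 0.623). Hcar1 was at −1.74 within the higher-numbered mice and −0.31 within the lower-numbered pair, and passed without KSR2-/- mouse 3 (limma adjusted p = 0.0284). Ptger3 was at −1.11 within the higher-numbered mice and 0.11, of opposite sign, in the lower-numbered pair. Hcar2 differed by −0.47 (SE 0.22, limma adjusted p = 0.457), at −0.73 within the higher-numbered mice and 0.04 within the lower-numbered pair.

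The 10 adenylyl cyclase genes, which make cAMP, had a median of 0.12. Adcy7, a form abundant in blood cells, read 10.25, 10.31 and 7.95 in KSR2-/- mice and 8.43, 8.13 and 7.86 in WT mice. Only KSR2-/- mice 1 and 2 were high, so its difference of 1.36 (SE 0.61, limma adjusted p = 0.443) was 2.00 within the higher-numbered mice and 0.09 within the lower-numbered pair. Adcy7 passed without KSR2-/- mouse 3 (limma adjusted p = 0.00746). The mean level of macrophage markers was 10.14 and 10.13 in those 2 mice, 9.00 in KSR2-/- mouse 3 and 8.55 to 8.70 in WT. The part of macrophage content in the Adcy7 difference was not tested. Adcy9 differed by 0.37 (SE 0.15, limma adjusted p = 0.407). Adcy10 went the other way, at −0.46 (SE 0.17, limma adjusted p = 0.362), but stayed under the 20th percentile of all values on every array. G protein alpha subunits had a median of 0.04 and 0 of 7 at an unadjusted p under 0.05, beside 12.1% of all genes.

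Protein kinase A is the main effector of cAMP in fat cells. Of its 9 subunit and inhibitor genes 8 were higher, beside 44.4% of all genes, with a median of 0.20. The inhibitor gene Pkia read 8.02, 8.32 and 8.85 in KSR2-/- mice and 6.93, 7.56 and 7.79 in WT mice. No values overlapped, and the difference of 0.97 (SE 0.30, limma adjusted p = 0.296) was 0.93 within the higher-numbered mice and 1.06 within the lower-numbered pair. Pkib, a second inhibitor, read 5.67, 6.20 and 3.44 in KSR2-/- mice and 3.21, 2.73 and 3.42 in WT mice. KSR2-/- mouse 3 was at the WT level, and the difference of 1.98 (SE 0.67, limma adjusted p = 0.318) was 2.97 within the higher-numbered mice and 0.02 within the lower-numbered pair. All WT values lay under the 20th percentile of all values (3.44), so the difference was read against values near the floor of the array. Pkib passed without KSR2-/- mouse 3 (limma adjusted p = 0.00695).

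The list of anchoring and partner proteins had 3 of 15 higher and 1 lower at an unadjusted p under 0.05, beside 6.71% and 5.38% of all genes. Akap7 differed by −0.73 (SE 0.20), Akap13 by 0.75 (SE 0.26) and Arrb1, an arrestin that brings PDE4 to active receptors, by 0.55 (SE 0.23), with limma adjusted p of 0.259 to 0.411. Within the higher-numbered mice these were −0.99, 1.11 and 0.82, and within the lower-numbered pair −0.22, 0.02 and 0.01. Akap13 differed by 0.27 when the mean of all its probe sets was used. Other cAMP effectors had a median of 0.21, with the cAMP-binding Popdc2 at −0.70 (SE 0.23, limma adjusted p = 0.312). On the cGMP side 0 of 13 genes had an unadjusted p under 0.05, beside 12.1% of all genes. The natriuretic peptide clearance receptor Npr3 differed by 0.55 (SE 0.26, limma adjusted p = 0.473) and the cGMP-dependent kinase Prkg1 by −0.29 (SE 0.19, limma adjusted p = 0.619), with ranges of 0.32 to 0.79 and −0.40 to −0.13 when 1 array was left out.

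Insulin signalling to PDE3B had 9 of 12 measured genes lower and 3 higher, beside 44.4% of all genes higher, and a median of −0.26. At an unadjusted p under 0.05 there were 1 higher and 1 lower, beside 6.71% and 5.38% of all genes. Irs1, the insulin receptor substrate, read 8.66, 8.62 and 9.63 in KSR2-/- mice and 10.46, 10.39 and 10.49 in WT mice. All KSR2-/- mice were low, with a difference of −1.47 (SE 0.28, limma adjusted p = 0.197) that was −1.78 within the higher-numbered mice and −0.86 within the lower-numbered pair. Irs1 passed without KSR2-/- mouse 3 (limma adjusted p = 0.00552). Akt1 read 8.84, 8.86 and 8.85 in KSR2-/- mice and 8.26, 8.16 and 8.18 in WT mice. Its difference of 0.65 (SE 0.14, limma adjusted p = 0.210) was 0.64 within the higher-numbered mice and 0.67 within the lower-numbered pair. The regulatory subunit Pik3r1 differed by −0.62 (SE 0.31, limma adjusted p = 0.491), at −0.82 among the higher-numbered mice and −0.22 in the lower-numbered pair.

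Downstream, 0 of 7 measured genes of lipolysis had an unadjusted p under 0.05, beside 12.1% of all genes. Pnpla2, the triglyceride lipase ATGL, read 10.45, 10.38 and 11.73 in KSR2-/- mice and 11.64, 11.59 and 11.72 in WT mice, with KSR2-/- mouse 3 at the WT level. Its difference of −0.79 (SE 0.36) had a limma adjusted p of 0.444 and of 0.0159 without KSR2-/- mouse 3. Genes transcribed in response to cAMP split, with 2 higher and 2 lower of 13 at an unadjusted p under 0.05, beside 6.71% and 5.38% of all genes. Atf3, a stress-inducible transcription factor, differed by 2.67 (SE 0.77), Ppargc1a, the coactivator PGC-1α, by −1.64 (SE 0.29) and Pck1, the cytosolic enzyme of glyceroneogenesis, by −2.05 (SE 0.63), with limma adjusted p of 0.193 to 0.297. Within the higher-numbered mice these were 3.79, −2.07 and −2.72, and within the lower-numbered pair 0.44, −0.77 and −0.71. Over the alternative analyses they ran from 2.12 to 3.67, from −1.94 to −1.15 and from −2.79 to −1.20. All 3 passed limma without KSR2-/- mouse 3 (adjusted p = 0.0015, 0.0366 and 0.0142), in the fit that passed 4.49% of all genes. The 3 genes are also controlled by signals other than cAMP. Ppargc1a read low in KSR2-/- mice (3.63, 3.40 and 3.92), near the 20th percentile of all values (3.44).

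**Figure D5:**
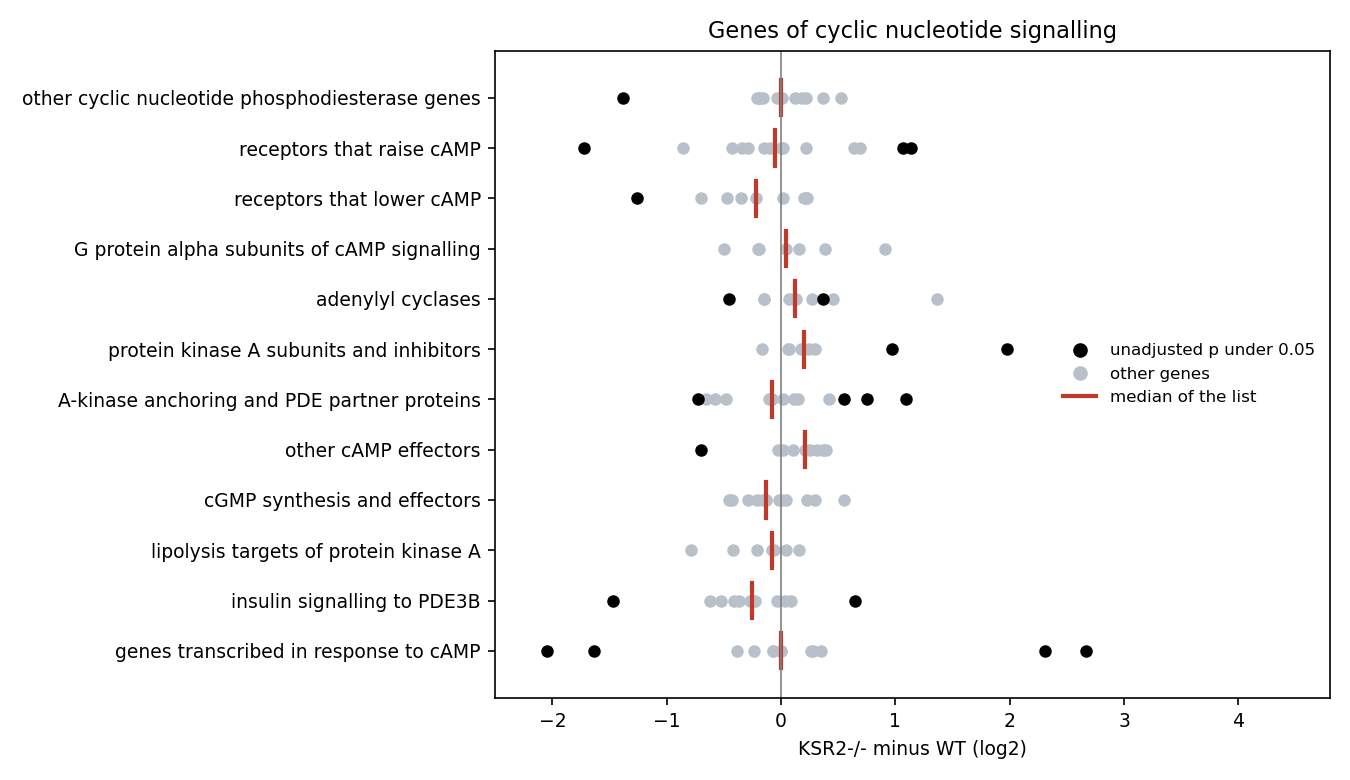
KSR2-/- minus WT difference in log2 units (horizontal axis) of each measured gene of 12 lists of cyclic nucleotide signalling, with the list median as a red line and genes at an unadjusted limma p under 0.05 in black. List medians lie between −0.26 and 0.21, and none of the genes passed the adjusted threshold.

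The array profiles most like those of Pde2a and Pde3b were found by the root mean square difference between profiles over the 6 arrays, each after subtraction of its own mean, among 9288 genes. For Pde2a the nearest genes were Atp6v0a1, a proton pump subunit (0.20 log2), Shroom2, which acts on the actin cytoskeleton (0.21), and Nedd4l, a ubiquitin ligase (0.21). Nedd4l read 9.23, 8.97 and 9.29 in KSR2-/- mice and 7.75, 7.78 and 8.17 in WT mice. For Pde3b they were Ackr2, a decoy receptor for chemokines (0.06), Entpd6, an ectonucleotidase family member (0.07), and the glucose transporter gene Slc2a3 (0.09). Ackr2 read 6.23, 6.46 and 6.69 in KSR2-/- mice and 7.21, 7.52 and 7.40 in WT mice. These genes were selected for their likeness over the arrays of this comparison, and their differences (1.27 to 1.83 and −0.92 to −0.84) were not used as a test.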

How the data were processed

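Total RNA of white adipose tissue was measured on 6 Affymetrix arrays, 1 per mouse. The deposited values are RMA intensity values on a linear scale, per the submitters' processing notes for the method and the values themselves for the scale; no RMA version was named there. RMA normalizes the arrays together. From these, log2 was taken (lowest intensity 2.96, no pseudocount). Of 45101 probe sets, 34945 had 1 gene symbol, 932 several and 9160 none listed, and 64 were controls; 34741 matched RefSeq genes of GRCm38.p6. A gene was represented by its brightest single-gene probe set, judged by the mean of the 6 arrays. KSR2-/- and WT (3 arrays each) were compared in R 4.3.3 with the limma package, version 3.58.1 (lmFit and eBayes without trend, two-sided, Benjamini-Hochberg over 18193 genes). The fit was also run on simulated normal noise, independent between arrays and of equal spread, with added differences. That run held no outlying or degraded array. The number of arrays limits the precision (median SE 0.22 log2). Replicates were numbered in accession order, and no mice were paired. The genes and lists were chosen with earlier results of these data known. Pathway genes named for their difference were among the 3 with the smallest unadjusted p of their list, and not every such gene was named. Of each marker list up to 2 genes with the highest mean were named, and for Pde2a and Pde3b the 3 genes of the most similar profile. Alternatives were the mean of all probe sets, a filter at the median gene, every probe set, repeated quantile normalization, median centring, eBayes with trend, the animal number series as a block, and each array left out.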

Additional observations from a re-analysis of the deposited data

How the results depend on the processing

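Among the 10 phosphodiesterase genes the count past limma was 0, and with 1 array left out it ran from 0 to 2, the 2 being Pde2a and Pde3b without KSR2-/- mouse 3. The adjusted p over 12 alternatives ran from 0.0243 to 0.548 for Pde2a and from 0.0489 to 0.711 for Pde3b, and their differences from 1.21 to 1.62 and from −0.98 to −0.75. Signs changed in 0 of 12 alternatives for Pde2a, Pde3b, Pde4d, Pde7a and Pde8a, in 3 of 12 for Pde4b, and of 11 in 2 for Pde3a and 1 each for Pde4a, Pde5a and Pde10a. The median difference was −0.07, −0.08 to 0.06 with 1 array left out, and 0.14 with the filter, which kept 6 of the 10. Over all genes limma passed 1, and 0 to 816 with 1 array left out (816 without KSR2-/- mouse 3, 9 without WT mouse 3 and 0 without each of the other 4). The count was 12 with the filter, 2 with quantile normalization, 16 with centring and 10 with trend. Blocking on the animal number series gave 0 (2361 at an unadjusted p under 0.05). Of the 244 list genes 0 passed, and 0 to 26 with 1 array left out, 26 without KSR2-/- mouse 3. The cause of these shifts was not tested. No paired analysis was possible because the labels hold no shared replicate numbers.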
